A study of Mus musculus with 9 samples.

Results

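The genes examined here encode proteins of the red cell membrane and its skeleton, namely Slc4a1, Ank1, Sptb, Epb42, Add2, Rhag, Rhd and Kel. They were chosen by name, with earlier results of these data known, and every one could be matched to array probes by accession, symbol or synonym. They were 8 of 27573 genes on the array and were read by 19 of 41174 probes. Of the 8 genes, 7 were measured well enough to be tested, among 14262 genes tested, and Add2 was not.

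The samples came from 3 female athymic BALB/c mice, spelled Balb/c atymic in the labels and numbered 832, 833 and 834. Athymic mice form few mature T cells. Each mouse gave 3 samples. The first is the day 10 TIC sample, a fraction of the tumour enriched in infiltrating inflammatory cells. The second is blood drawn 10 days after Hepa1-6 cells, a mouse hepatoma line, were injected under the skin (day 10 Blood). The third is blood of the same mouse before the injection (day 0 Blood). Each sample was labelled with Cy5 and hybridised with a Cy3-labelled reference made from the blood of a female C57Bl/6 mouse that had received no treatment, on a 2-colour Agilent array, so each group holds 3 arrays. All groups share the strain, the sex and the athymic background, and the dyes were not swapped. The 10 days take in the injection, the growth of the tumour and the earlier blood draw, which cannot be told apart here. The TIC RNA and the blood RNA were also extracted with different kits per the labels' protocols, so tissue and kit cannot be told apart.

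A red cell keeps its shape and survives shear because a mesh of spectrin, held under the membrane, is tied to proteins that span it. Slc4a1 (band 3) exchanges chloride for bicarbonate and anchors the mesh through Ank1 (ankyrin), which binds the spectrin beta chain encoded by Sptb. Epb42 (protein 4.2) strengthens the link between band 3 and ankyrin, and Add2 (beta adducin) caps actin at the mesh's junctions. Rhag and Rhd form the Rh complex, in which Rhag passes ammonia or carbon dioxide and Rhd carries blood group antigens in humans, and Kel carries those of the Kell group and is an endopeptidase. Mature red cells hold no nucleus and so make no new mRNA, and the mRNA of these genes in blood lies mostly in reticulocytes, the youngest red cells. In whole blood or a mixed fraction, fewer red cells and less RNA per cell cannot be told apart.

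Proximal promoters are shown for 3 of the tested genes. Within 56 bases of the gene start they hold words of the kind that the erythroid factor GATA1 is known to bind. Epb42, also tested, held such a word farther from the start and is not shown. The sequences are the 250 bases before the gene start on the gene's strand, 5′ to 3′, from RefSeq on GRCm38.p6. Capitals mark the words searched on either strand, which were AGATAA with the variant AGATAG as well as TGATAA with the variant TGATAG. The matches overlapped no other match in these windows.
Kel, chr6:41704326-41704575 (-): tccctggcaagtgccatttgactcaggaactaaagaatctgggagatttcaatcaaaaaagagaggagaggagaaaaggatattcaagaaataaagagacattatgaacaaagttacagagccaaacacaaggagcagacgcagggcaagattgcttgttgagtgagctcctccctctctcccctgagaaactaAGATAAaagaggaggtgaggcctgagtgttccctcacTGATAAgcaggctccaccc
Rhd, chr4:134864286-134864535 (+): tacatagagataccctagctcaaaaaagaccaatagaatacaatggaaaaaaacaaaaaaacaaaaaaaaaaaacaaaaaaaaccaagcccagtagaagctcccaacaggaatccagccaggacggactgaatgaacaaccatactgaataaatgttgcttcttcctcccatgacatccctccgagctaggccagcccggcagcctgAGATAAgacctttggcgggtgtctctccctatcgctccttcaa
Rhag, chr17:40810899-40811148 (+): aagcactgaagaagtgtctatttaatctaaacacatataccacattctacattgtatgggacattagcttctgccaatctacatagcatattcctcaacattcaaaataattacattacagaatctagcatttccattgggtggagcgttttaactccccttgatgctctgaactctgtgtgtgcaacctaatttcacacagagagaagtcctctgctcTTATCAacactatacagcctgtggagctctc
RefSeq held a promoter for 6 of the 8 genes, and 5 of these 6, all but Sptb, held such a word, against 26.5% of the 32851 promoters of the same length. In Kel they lay 56 and 19 bases before the start, in Rhd 43 and in Rhag 31. In Epb42 and Add2 the word lay 226 and 234 bases before the start. The word CCNCNCCC, which some Krüppel-like factors read, was present on either strand in 2 of the 6 (Sptb and Add2), against 45.9% of all. A match is a description of the letters and not evidence of binding. No promoter was available for Slc4a1 or Ank1.

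Sample brightness differed between the groups before any gene was considered. Cy5 was well above background at 48.2% to 55.1% of spots for the TIC fraction, at 14.2% to 21% for day 10 blood and at 24.3% to 36.9% for day 0 blood, and Cy3 at 40.2% to 50.4% on all 9 arrays. The normalized ratios of arrays of the same group correlated at 0.786 to 0.989. In the TIC group the array of mouse 833 stood apart, with correlations of 0.885 and 0.896 to the others, which correlated at 0.989 with each other. The arrays were on 3 slides, and the TIC and day 10 blood arrays shared none. Values below are log2 ratios of Cy5 to the Cy3 reference after loess normalization, unless another quantity is named, and differences carry the SE of the limma fit. Adjusted p is limma's, with Benjamini-Hochberg adjustment over all genes tested, at a threshold of 0.05. It rests on the spread between arrays within groups, pooled over the 3 groups, which mixes mouse, slide and array. The samples of a mouse are treated as independent in the main fit.

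In day 10 blood all 7 tested genes had higher ratios than in day 0 blood, in each of the 3 mice and with no overlap between the groups, but none of the differences passed the adjusted threshold. The differences ranged from 0.61 (Rhag) to 2.39 (Slc4a1) with a median of 1.45, against a median of -0.01 over all genes. With limma no gene of the 14262 was called in this comparison (percent called 0% in either direction), while 8.71% were higher at an unadjusted p under 0.05, a mark that all 7 members passed. Groups that did not overlap, with day 10 blood higher, were found for 15.7% of all genes, and 24.3% were higher in all 3 mice.

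Slc4a1 had ratios of 0.38, 0.90 and 1.31 in day 10 blood of mice 832, 833 and 834, against -1.46, -2.01 and -1.12 in their day 0 blood. All of the day 10 values lay above all of the day 0 values. A ratio of 0 after loess is the typical value of an array at that brightness and not the level of the reference. The difference was 2.39 ± 0.41 (SE, n = 3 mice a group; adjusted p from limma 0.0663). Per the files, its probe lies at chr11:102165032-102165091 on mm8. The probes used for the others lie at chr8:24614702-24614761 (Ank1), chr12:77515510-77515569 (Sptb), chr2:120710145-120710204 (Epb42), chr17:40303464-40303523 (Rhag), chr4:134168179-134168238 (Rhd) and chr6:41616082-41616141 (Kel), with no exon annotation of that build used here.

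Ank1 had ratios of -0.78, -0.88 and -0.56 in day 10 blood and -2.74, -3.34 and -2.11 in day 0 blood, a difference of 1.99 ± 0.32 (limma adjusted p 0.066). The lowest day 10 value lay above the highest day 0 value by more than a unit. Sptb had 0.43, 0.54 and 0.84 in day 10 blood and -0.14, -0.73 and -0.39 in day 0 blood, a difference of 1.02 ± 0.18 (limma adjusted p 0.0663). Epb42 had -1.94, -1.79 and -1.17 in day 10 blood and -3.42, -3.48 and -2.62 in day 0 blood, a difference of 1.54 ± 0.36 (limma adjusted p 0.125). These 3 genes, which hold band 3 to the spectrin mesh, were all higher in each mouse at day 10.

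Among the antigen carriers, Kel had -0.70, -0.51 and -0.32 in day 10 blood and -1.71, -2.43 and -1.75 in day 0 blood, a difference of 1.45 ± 0.27 (limma adjusted p 0.0701). Rhd had -0.52, -0.14 and -0.36 in day 10 blood and -1.38, -1.30 and -1.41 in day 0 blood, a difference of 1.02 ± 0.28 (limma adjusted p 0.159). Rhag had -0.38, -0.27 and -0.18 in day 10 blood and -0.998, -1.04 and -0.63 in day 0 blood, a difference of 0.61 ± 0.18 (limma adjusted p 0.192). In this setting Sptb and the Rh genes had the smallest differences of the 7, and Rhag the smallest of all. The order depended on the scaling. With the deposited log ratios Sptb gave 2.52 and Slc4a1 1.49, while Rhag remained the smallest at 0.97.

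**Figure D1:**
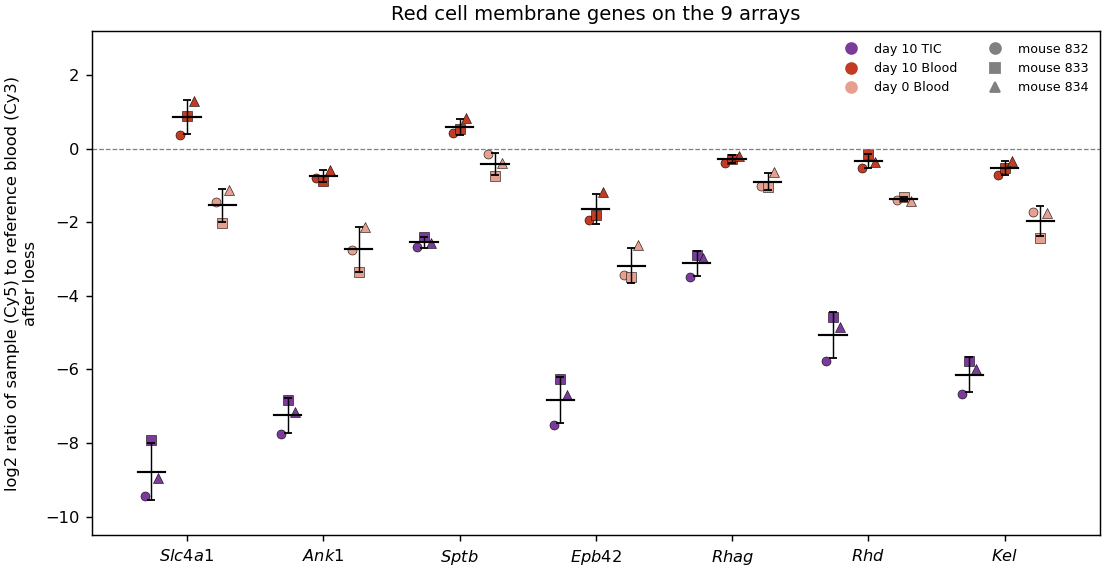
Log2 ratio of Cy5 to the Cy3 reference for each of the 7 tested genes, by group, with 1 point for each mouse and the mean with its SD as bars. In all 7 genes the TIC values lie below every blood value, and the day 10 blood values lie above the day 0 blood values without overlap. The TIC values of Sptb, Epb42 and Rhag were at background.

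Raw brightness shows what the ratios rest on. In Cy5 after subtraction of local background, Slc4a1 read 2382, 4534 and 3002 intensity units in day 10 blood of mice 832, 833 and 834, against 4888, 1880.4 and 1236 in day 0 blood, so the groups overlapped. The arrays' median Cy5 was lower in day 10 blood, 2.10 to 2.66 units, than in day 0 blood, 3.29 to 5.57 units. The higher ratios at day 10 were thus relative to the rest of each array, and raw brightness did not separate the bloods for Slc4a1.

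The absence of a call depends in part on which arrays set the error, and in part on the scaling. The 3 groups share 1 estimate of spread in limma, which also takes in the TIC arrays. Without the TIC array of mouse 833, 1058 genes were called, 534 of them higher in day 10 blood (3.74% of genes tested), and 6 of the 7 members were among them. Without that of mouse 834 the adjusted p from limma rose instead, to 0.109 for Ank1 and 0.125 for Kel. It also rose with any 1 day 10 blood array left out, to 0.177 to 0.273 for Ank1 and 0.203 to 0.312 for Kel. With only the blood arrays in the fit, 748 genes were called, of which 376 were higher (2.64%), and all 7 members were called. With mouse as a replicate block, 32 genes were called, 29 higher (0.203%), and no member was. Among the 3911 genes that every array read above background, 2.58% were called higher, and 3 of the 4 members in that set were. On slide 3, which held all 3 day 10 blood arrays and 1 day 0 blood array, the members' median difference was 1.07 (0.36 to 1.99), below the 1.45 of the main fit. The day 0 blood arrays of mice 832 and 833 were on slide 2, so day and slide are partly confounded. A fit with slide as a block therefore rests on the 1 day 0 blood array of slide 3 for this comparison.

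The size of the difference depended on the scaling. The members' median difference was 2.13 with the deposited log ratios, where 5 of 7 were called against a background of 0.989% of genes (0.961% with Agilent's processed signals, also 5 of 7), and 1.35 with Cy5 alone, where 6 of 7 were called against 1.31%. With each array only centred on its median and not loess-fitted, it was 0.22, Rhag (-0.07) and Rhd (-0.10) turned negative and no gene was called. In each of these settings all 7 lay above the median of all genes, which was -0.01 in the main setting, -0.21 with the deposited log ratios, -0.07 with Cy5 alone and -0.18 with median centring.

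**Figure D2:**
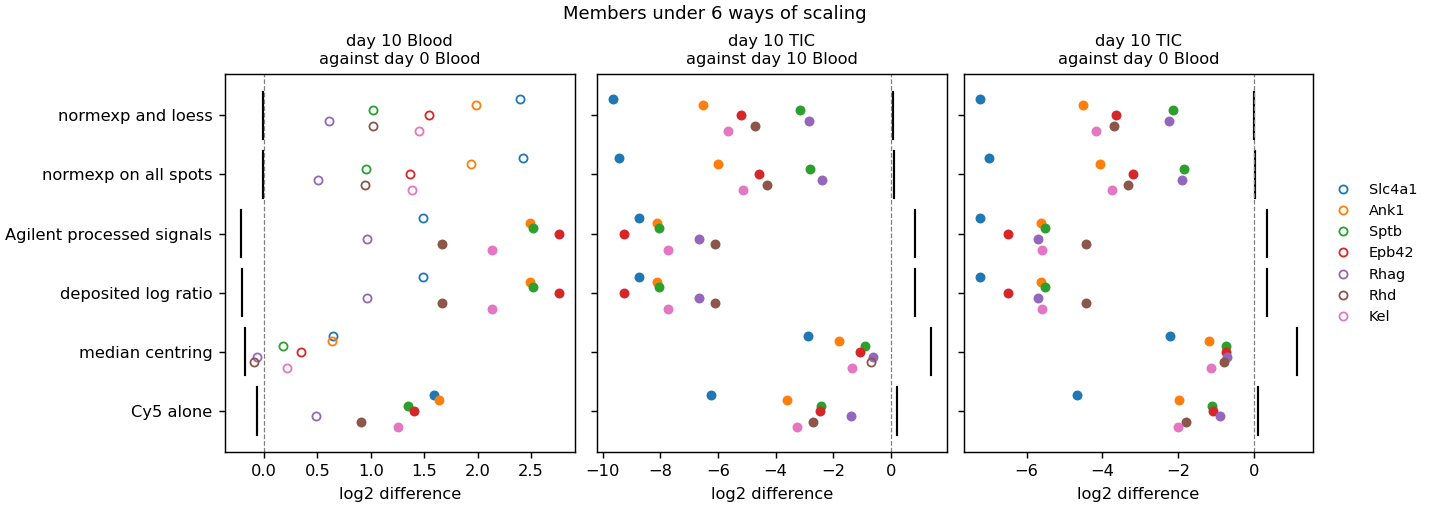
Log2 differences of the 7 genes in 3 comparisons under 6 ways of scaling, filled where limma's adjusted p was under 0.05 and open otherwise, with a black bar at the median of all genes tested. In day 10 blood against day 0 blood the points lie to the right of the bar in every setting, and in both TIC comparisons to the left of it. Sptb, Epb42 and Rhag were at background on the TIC arrays.

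The tumour fraction had the lowest ratios of the 3 groups for every tested gene. Slc4a1, Ank1, Rhd and Kel, which were well above background on all 9 arrays, were lower than in day 10 blood at an adjusted p from limma of 9.3e-07 to 2.6e-06, with a median difference of -6.07, while 33.2% of all genes were called lower and 34.4% higher. They were lower than in day 0 blood at 3.6e-06 to 1.2e-05, with a median of -4.35 (33.6% of all genes lower, 31.7% higher). The other 3, Sptb, Epb42 and Rhag, were also called lower in both comparisons but passed the filter through the blood arrays alone. Their calls therefore add no support and their sizes are approximate bounds. With these 3 at their bounds the median over the 7 was -4.72 from day 10 blood and -3.70 from day 0 blood. The TIC values did not overlap those of day 10 blood, on the lower side, for 35% of all genes and those of day 0 blood for 34.9%. The comparisons share the TIC arrays and are given side by side.

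Slc4a1 had ratios of -9.44, -7.93 and -8.96 in the TIC fraction of mice 832, 833 and 834, and was well above background there on all 3 arrays. Its difference was -9.64 ± 0.41 against day 10 blood and -7.24 ± 0.41 against day 0 blood. Its raw brightness was also lower, at 951, 313 and 453 intensity units in the TIC fraction, against 2382 to 4534 (day 10 blood) and 1236 to 4888 (day 0 blood), although the TIC arrays were brighter as a whole, with a median Cy5 of 9.84 to 22.1 units.

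Ank1 had ratios of -7.76, -6.82 and -7.15 in the TIC fraction, a difference of -6.50 ± 0.32 from day 10 blood and of -4.51 ± 0.32 from day 0 blood. Kel had -6.68, -5.76 and -5.99 there, a difference of -5.63 ± 0.27 from day 10 blood and of -4.18 ± 0.27 from day 0 blood. Rhd had -5.78, -4.57 and -4.84 there, a difference of -4.72 ± 0.28 from day 10 blood and of -3.70 ± 0.28 from day 0 blood. All 3 were well above background on every TIC array. Ank1 and Kel were dim there, at 13.7 to 49.7 and 11.97 to 43.85 units, beside an array median Cy5 of 9.84 to 22.1 units. Their sizes are therefore approximate. In day 10 blood they read 134 to 194 and 96.6 to 153 units, and in day 0 blood 57.6 to 160 and 53.7 to 204. Rhd's raw brightness did not separate the groups, at 51.7 to 60.3 units in the TIC fraction, 56.5 to 134 for day 10 blood and 43.8 to 152 for day 0 blood, although it was lower in the TIC fraction with Cy5 alone after quantile normalization (-2.70 from day 10 blood and -1.79 from day 0 blood).

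No TIC array read Sptb, Epb42 or Rhag well above background, so only approximate bounds apply. They were computed from loess- and Aquantile-normalized single channels, which are open to dye bias. For Sptb and Rhag the TIC level used was the reading itself, at background, so these bounds are not strict minima. The bound for Sptb was 8.12-fold lower in the TIC fraction than in day 10 blood and 4.1-fold lower than in day 0 blood. For Epb42 it was 25.8-fold lower than in day 10 blood and 10.1-fold lower than in day 0 blood. For Rhag it was 6.25-fold and 4.23-fold lower. Their TIC ratios were -2.68, -2.39 and -2.57 for Sptb, -7.51, -6.27 and -6.69 for Epb42 and -3.50, -2.89 and -2.96 for Rhag in mice 832, 833 and 834.

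**Figure D3:**
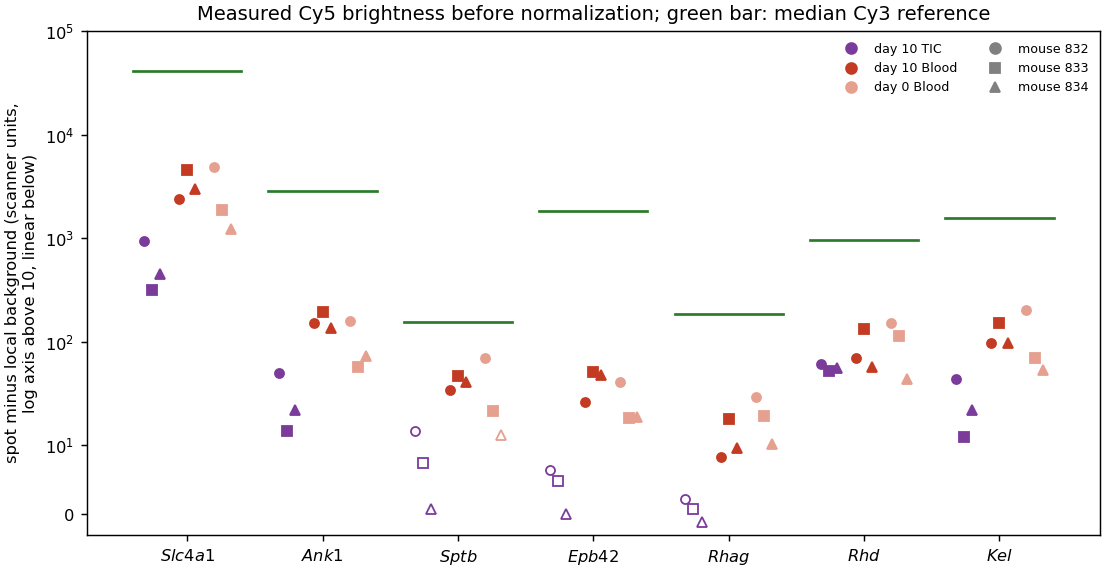
Background-subtracted Cy5 intensity of the 7 genes on each array before normalization, in scanner intensity units on an axis that is logarithmic above 10 and linear below, open where not well above background, with a green bar at the median Cy3 reference. The TIC points of Slc4a1 lie below every blood point in Cy5, while those of Rhd overlap the blood points.

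The size of the TIC difference also depended on scaling. For Slc4a1, Ank1, Rhd and Kel the median against day 10 blood was -7.92 with the deposited log ratios, -3.43 with Cy5 alone and -1.57 with median centring. With median centring 3.25% of all genes were called lower than in day 10 blood, as were 3 of these 4, Rhd (-0.68, limma adjusted p 0.0544) being the exception, and 5.74% were called lower than in day 0 blood, as were all 4. With Cy5 alone all 4 were lower in both comparisons, against 22.8% (day 10 blood) and 22.1% (day 0 blood) of genes. Among the 3911 genes that every array read above background all 4 were lower, against 58.1% and 58.8%. For Sptb, Epb42 and Rhag the differences from day 10 blood were smaller than the bounds above with Cy5 alone (-2.44, -2.47 and -1.38) and with loess after normexp on all spots (-2.79, -4.57 and -2.39), so the bounds apply to the main setting only. The median of all genes was 0.07 in the main setting, 0.85 with the deposited ratios and 1.38 with median centring. Slc4a1, Ank1, Rhd and Kel lay below it in each setting. Sptb, Epb42 and Rhag did so too but, being at background in the TIC fraction, add no support. Of the genes called in the TIC against day 10 blood comparison, 50.9% were higher in the main setting, 63.2% with the deposited ratios and 95.7% with median centring.

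Add2, which caps actin filaments, had 4 probes, none well above background in Cy5 on any of the 9 arrays, while all were so in Cy3 on all 9. Its brightest probe read 0.695 to 11.5 units in Cy5 and 80.9 to 110 in Cy3, so nothing is said of its level in the samples. Where a gene had several usable probes they gave the same direction and smaller sizes. The second Ank1 probe gave 1.25 against 1.99 for day 10 over day 0 blood and -4.43 against -6.50 for the TIC fraction over day 10 blood. Between the bloods the second Sptb probe gave 0.36 against 1.02 and the second Epb42 probe 1.46 against 1.54.

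Of 30 other genes of the red cell membrane and skeleton, 25 were tested, and 23 of them were higher in day 10 blood with none called, the median being 0.54. Among the genes with the smallest p were Tspo2, a translocator protein of erythroid cells (2.22 ± 0.30), basigin Bsg (0.90 ± 0.16) and Cd24a (1.55 ± 0.30), with limma adjusted p of 0.0582 to 0.0755. Against day 10 blood 19 were lower and 4 higher in the TIC fraction, with a median of -2.56, and against day 0 blood 19 were lower and 4 higher, with a median of -2.35. The 19 include Tmod1, Ermap and Ackr1, which passed the filter through the blood arrays alone, so their calls add no support. Stomatin Stom (-4.26 ± 0.17), the water channel Aqp1 (-5.57 ± 0.23) and protein 4.1, Epb41 (-10.87 ± 0.47), had the smallest p against day 10 blood. The 4 that were higher there were Abcb6, Bcam, Slc29a1 and the glucose transporter Slc2a1, named after their values were seen, of which the first 3 were dim, not clearing background, on each day 10 blood array.

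Of 20 paralogs that other cells use in place of the red cell forms, 14 were tested. Between the bloods 7 of them were higher and none called, with a median of 0.02, and in the TIC fraction against day 10 blood 6 were higher and 5 lower, with a median of 0.02. Epb41l1, a protein 4.1 relative, was lower (-2.40 ± 0.23), as were the adducin Add1 (-2.41 ± 0.34), which also stands in the list above, and the anion exchanger Slc4a3 (-0.83 ± 0.11), which was above background on 1 of 3 arrays in each group. Ank3, another ankyrin, was higher (limma adjusted p 0.000184) but in day 10 blood no array read it well above background, so it has no fold.

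Of 18 erythroid genes outside the membrane, 15 were tested, and all 15 were higher in day 10 blood than in day 0 blood with none called, with a median of 0.93. Trim10, a protein needed for terminal erythroid maturation in mouse cells (1.79 ± 0.30), and Tfrc, the transferrin receptor (0.50 ± 0.12), had the smallest p. In the TIC fraction 14 of the 15 were lower than in day 10 blood, with a median of -5.90. The smallest p were those of the globin Hbb-y (-11.81 ± 0.24) and the transcription factor Nfe2 (-5.04 ± 0.17), and the difference of Nfe2 was smaller in size than the median.

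**Figure D4:**
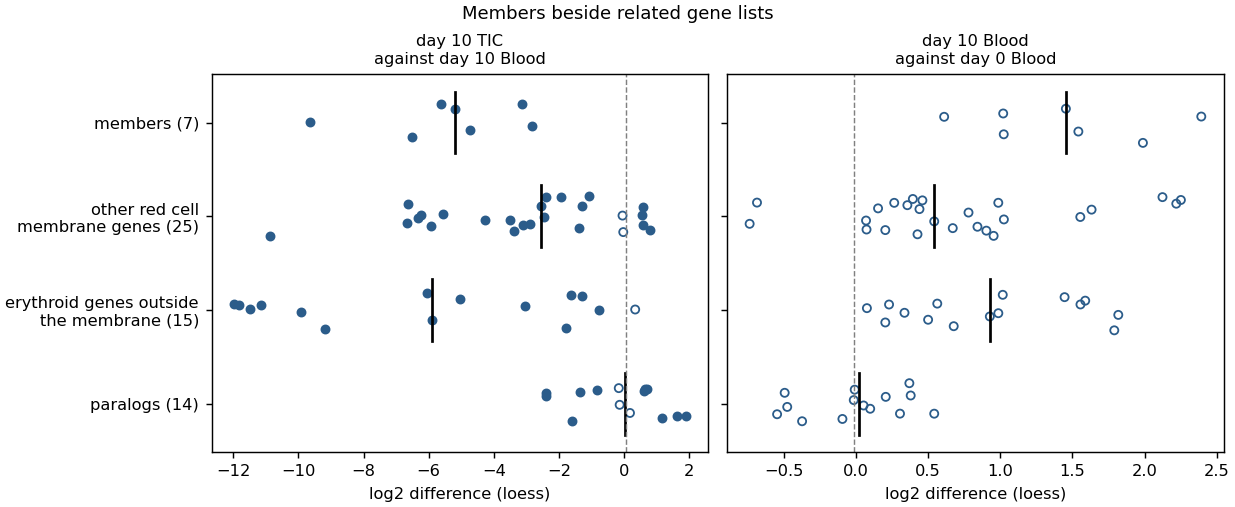
Log2 differences of the tested genes in each gene list for day 10 TIC against day 10 blood and day 10 blood against day 0 blood, filled where limma's adjusted p was under 0.05, with a bar at each list's median and a dashed line at the median of all genes tested. In day 10 blood against day 0 blood the members (median 1.45), the other red cell membrane genes (0.54) and the erythroid genes (0.93) lie mostly above 0, and the median of the paralogs is 0.02.

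Markers of other cells also differed in raw brightness. The summed Cy5 of the 6 measured B cell markers was 142 to 755 units at day 10 and 3062 to 5800 units at day 0. That of the 6 neutrophil markers was 10974 to 17253 at day 10 and 26301 to 68031 at day 0. These sums are not normalized, and the day 10 blood arrays were dimmer as a whole. In log2 ratios the median difference between the bloods was -0.80 for the B cell and -0.44 for the neutrophil markers, with none called. Platelet genes had the members' directions. Their 6 tested genes had a median difference of 0.65 between day 10 and day 0 blood, 5 of 6 being positive with none called, and Ppbp (1.22 ± 0.27) and Gp9 (1.502 ± 0.36) had the smallest p. All 6 were called lower in the TIC fraction than in day 10 blood, with a median of -5.82. Of these, Gp5 and Itga2b were well above background on no TIC array and passed the filter through the blood arrays alone. Their calls therefore add no support, and the median is approximate. The summed Cy5 of the 6 platelet genes was 171 to 632 units in the TIC fraction, 1836 to 4439 at day 10 and 2152 to 9738 at day 0. In the TIC fraction the 6 hepatoma and liver markers summed to 43872 to 93137 units, against 13.98 to 19.2 in day 10 blood. The 7 monocyte and macrophage markers summed to 3898 to 53674 units, against 99.7 to 177. The TIC arrays were brighter as a whole. In log2 ratios the list medians were 1.18 (5 of 6 called higher, 1 lower) and 0.20 (1 of 7 called higher). For the neutrophil markers the 2 measures went in opposite directions. Their sum was 20303 to 193500 units in the TIC fraction, but all 6 were called lower than in day 10 blood, with a median of -3.46. The part of these markers in the members' values was not tested. In day 10 blood Alb, Apoa1, Apoa2 and Igf2 of the hepatoma list and Kdr, Cdh5, Cldn5 and Emcn of the endothelial list were dim on all arrays, none being well above background. The other tested genes of these lists were well above background on 1 to 3 of the 3 day 10 blood arrays.

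Across the arrays the 7 genes kept close step, with pairwise correlations of 0.978 to 0.998 (21 pairs) over all 9 arrays and 0.873 to 0.989 over the 6 blood arrays. Each array carries 1 Cy5 sample beside the Cy3 reference and has its own brightness. These values thus also reflect what arrays share, and they are given with no p. Those over 9 arrays also take in the gap between the TIC fraction and blood. Sptb, Epb42 and Rhag were at background on the TIC arrays. The genes most like the mean of the tested members over 9 arrays were Fam214b (Pearson r 0.999), Trim10, Bsdc1, St3gal5 and Ghitm, and 20.7% of 11977 candidate genes exceeded 0.9. Over the 6 blood arrays they were Gstm5 (0.999), Cd36, Ctsb, Rsad2 and Tmcc2, and 6.59% of candidates exceeded 0.9.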

How the data were processed

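RNA of 9 samples was measured on 2-colour Agilent arrays. The authors deposited scanner tables with spot and background intensity in both channels and a log10 ratio of Cy5 over Cy3. Feature Extraction was version 10.5.1.1 per the file headers and 9.1.3.1 per the submitters' processing notes. The deposited value table held the same log10 ratios (largest difference 0). Probe positions are mm8, per the file headers.

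From mean spot and median background intensity, spots with non-uniform background (0 to 103 an array) were set aside, normexp (offset 50) and loess were applied, spots of a probe averaged, probes kept if 3 or more of the 9 arrays read them well above background in Cy5, and the brightest probe used for each gene (14262 genes). The comparisons used limma 3.58.1 (R 4.3.3) on all 9 arrays with group as the only term (6 residual degrees of freedom). Same-numbered samples came from the same mouse, so mouse as a replicate block was an alternative; deviations of the 2 bloods of a mouse correlated at 0.186, 0.345 and 0.243, and of blood with TIC at -0.0564 to 0.0649. Other alternatives were scalings, filters, slide as a block, the 2 groups alone and each array left out. Named genes are the members, up to 4 genes a list with the smallest p, and the 5 most correlated; 1 gene that the rule names is not reported here. The members and lists were chosen with earlier results of these data known. The fit was tested on simulated data.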

Additional observations from a re-analysis of the deposited data

How the results depend on the processing

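Between the bloods 0 genes were called. The count was 763 with Agilent's processed signals, 757 with the deposited log ratios, 447 with Cy5 alone, 147 with genes above background on all 9 arrays, 748 with the 2 groups alone and 12 with every probe as a feature. It was 0 to 1058 with an array left out, the highest without the TIC array of mouse 833. Members called there were 5, 5, 6, 3 and 7 in the first 5 of these settings, and 0 to 6 with an array left out, the 6 again without that TIC array. With the mouse as a replicate block, since the samples are paired by animal, 32 genes and no member were called between the bloods.

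In the TIC fraction against day 0 blood, genes called were 2922 with the all-array filter and 4433 with replicate and slide blocks (main 9323). Against day 10 blood they were 2968 with that filter, 4276 with the slide block and 1111 with both blocks (main 9638). That filter left 4 members, all 4 called in both comparisons, and fewer genes were tested.

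The members' median difference between the bloods was 2.13 with the processed signals and the deposited ratios, 0.22 with median centring and 1.07 with the slide block. Under median centring Rhag was -0.069 and Rhd -0.0975, the only reversals. For the TIC fraction against day 0 blood it was -5.63 with the processed signals and the deposited ratios, -0.78 with median centring, -1.79 with Cy5 alone and -4.35 with the all-array filter. Against day 10 blood it was -4.57 with all spots, -8.03 with the processed signals and the deposited ratios, -1.08 with median centring, -2.70 with Cy5 alone, -6.07 with the all-array filter, -4.43 with the slide block and -4.40 with both blocks. The TIC medians include Sptb, Epb42 and Rhag, which are at background there, except under the all-array filter. With an array left out these medians ranged over 1.22 to 1.56, -3.95 to -3.34 and -5.47 to -4.85. Where no construction is named, the cause was not tested. Dim Cy5 in day 10 blood and 3 mice a group limit the precision.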
